A study of Mus musculus with 6 samples.

Results

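Immune checkpoint and costimulation genes were followed in the piriform cortex, which receives input from the olfactory bulb, of mice given a virus for caspase 3, a protease of apoptosis, in their Gad2-expressing cells. The set held 9 genes, found by symbol among 53715 in the count table. It comprised the PD-1 ligands Cd274 and Pdcd1lg2, the CD28 and CTLA-4 ligands Cd80 and Cd86, the receptor Cd40, the death ligand Tnfsf10, the galectin Lgals9, the galectin-binding glycoprotein Lgals3bp and the receptor Havcr2. Cd40 and Havcr2 are thus receptors and not ligands. The 9 genes were chosen by their role and with their measured Caspase3 against GFP differences in these libraries known, so those differences are given as a description, with no test.

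All mice carried Gad2-cre, so that Cre is made where Gad2 is active, a gene for an enzyme of GABA synthesis that marks inhibitory neurons. Into the piriform cortex of 1 side they received an adeno-associated virus (AAV) with a Cre-dependent (DIO) cassette, either AAV-DIO-Caspase3, named for the caspase it carries (Caspase3 group, 3 libraries), or AAV-DIO-GFP as the control (GFP group, 3 libraries). Virus and Cre were therefore common to both groups, and no uninjected tissue was analysed here. Age, sex, the side sampled and the interval after injection are not given in the labels, nor whether each library was made from its own mouse, and the variation that the p-values rest on may thus be technical.

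T cells need a costimulatory signal beside antigen, which Cd80 and Cd86 on antigen-presenting cells give through Cd28. Checkpoint ligands do the opposite: Cd274 (PD-L1) and Pdcd1lg2 (PD-L2) engage the receptor PD-1 and restrain the T cell, and Lgals9 is a ligand of Havcr2 (TIM-3). In the brain, microglia are the main resident cells with Cd86, Cd40 and Havcr2, and interferons are known inducers of Cd274, Lgals9, Lgals3bp and Tnfsf10.

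Total counts lay between 20424581 and 26268377 per library, and 3 counts corresponded to 0.118 to 0.142 CPM (counts scaled to a common library size). Gad2, the gene that drives Cre, checked the labels: it was 26.7, 38.5 and 38.0 CPM in Caspase3 replicates 1 to 3 and 92.3, 117.9 and 103.5 CPM in GFP replicates 1 to 3 (log2 fold change -1.60 ± 0.15 SE, adjusted p = 0.00371 in edgeR's quasi-likelihood test over all genes). Caspase3 replicate 1 had the lowest Gad2 level of its group and the highest sum of microglia markers. In GFP replicate 3, 6 markers of striatal projection neurons summed to 368.5 CPM, against 72.1 to 103.9 CPM in the other 5 libraries. The summed cortical excitatory neuron markers overlapped between groups, at 3473 to 3784 CPM and 3342 to 3932 CPM.

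RefSeq windows of 250 bases before to 50 after the transcription start (GRCm38.p6) were found for 7 of the 9 genes, and those of the 3 genes with the largest group differences are shown to let the sequence ahead of each be compared. They run 5′ to 3′ on the gene's strand up to base 30 of the transcript, and capitals mark matches to the core of the interferon-stimulated response element (TTTC, any 2 bases, TTTC) on either strand. They lie at chr19:29367188-29367467 (plus strand), chr11:118401930-118402209 (minus strand) and chr11:78984895-78985174 (minus strand), in the order shown.
Cd274: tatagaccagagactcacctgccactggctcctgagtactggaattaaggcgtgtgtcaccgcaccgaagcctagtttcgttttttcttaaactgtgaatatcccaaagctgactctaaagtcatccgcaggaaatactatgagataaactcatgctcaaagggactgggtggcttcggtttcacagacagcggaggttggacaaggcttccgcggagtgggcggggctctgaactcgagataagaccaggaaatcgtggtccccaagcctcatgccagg
Lgals3bp: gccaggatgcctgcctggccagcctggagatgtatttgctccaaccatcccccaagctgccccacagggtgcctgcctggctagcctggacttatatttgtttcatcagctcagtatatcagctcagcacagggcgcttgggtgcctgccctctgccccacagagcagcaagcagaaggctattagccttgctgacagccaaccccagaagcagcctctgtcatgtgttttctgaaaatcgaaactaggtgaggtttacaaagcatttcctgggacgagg
Lgals9: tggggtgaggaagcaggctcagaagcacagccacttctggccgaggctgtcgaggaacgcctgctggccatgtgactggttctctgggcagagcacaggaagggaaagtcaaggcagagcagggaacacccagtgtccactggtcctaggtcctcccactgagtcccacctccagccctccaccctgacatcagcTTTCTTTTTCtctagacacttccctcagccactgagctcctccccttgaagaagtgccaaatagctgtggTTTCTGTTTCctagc
The Lgals9 window held 2 matches, TTTCTTTTTC from position -55 and TTTCTGTTTC from position 16 relative to the start. Of 32851 such windows over all genes, 3.44% held at least 1 match and 0.225% at least 2. The other 6 windows held none. No window of the 7 held the STAT site TTCNNNGAA or the NF-kB site (GGGA, any 1 base, TTTCC), which occurred in 8.30% and 0.411% of all windows. These letters are a description of the windows and not of binding.

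The PD-1 ligands differed from each other in level and in group difference. Cd274 (chromosome 19, 29367455 to 29388095, GRCm38, plus strand) stood at 22.4, 22.1 and 11.5 CPM in Caspase3 replicates 1 to 3 and 4.65, 2.49 and 1.97 CPM in GFP replicates 1 to 3. Every Caspase3 library lay above every GFP library, and the lowest of the former was 2.48 times the highest of the latter. Group means were 18.7 ± 6.20 and 3.04 ± 1.42 CPM (SD, n = 3 each), and the fitted log2 fold change was 2.62 ± 0.35 (SE), or 6.17-fold. Pdcd1lg2 begins 22823 bases beyond Cd274 on the same strand, at 29410919. It was close to undetected, with 0, 1 and 1 counts in the Caspase3 libraries and 2, 3 and 0 in the GFP libraries. Its ratio of 0.406 had an exact 95% interval of 0.0387 to 2.48, which covers counting error only. At this depth no group difference of Pdcd1lg2 was detected in either direction. The upper end of its interval, 2.48, lay below the 6.17-fold difference of its neighbour Cd274, with only counting error allowed for.

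**Figure D1:**
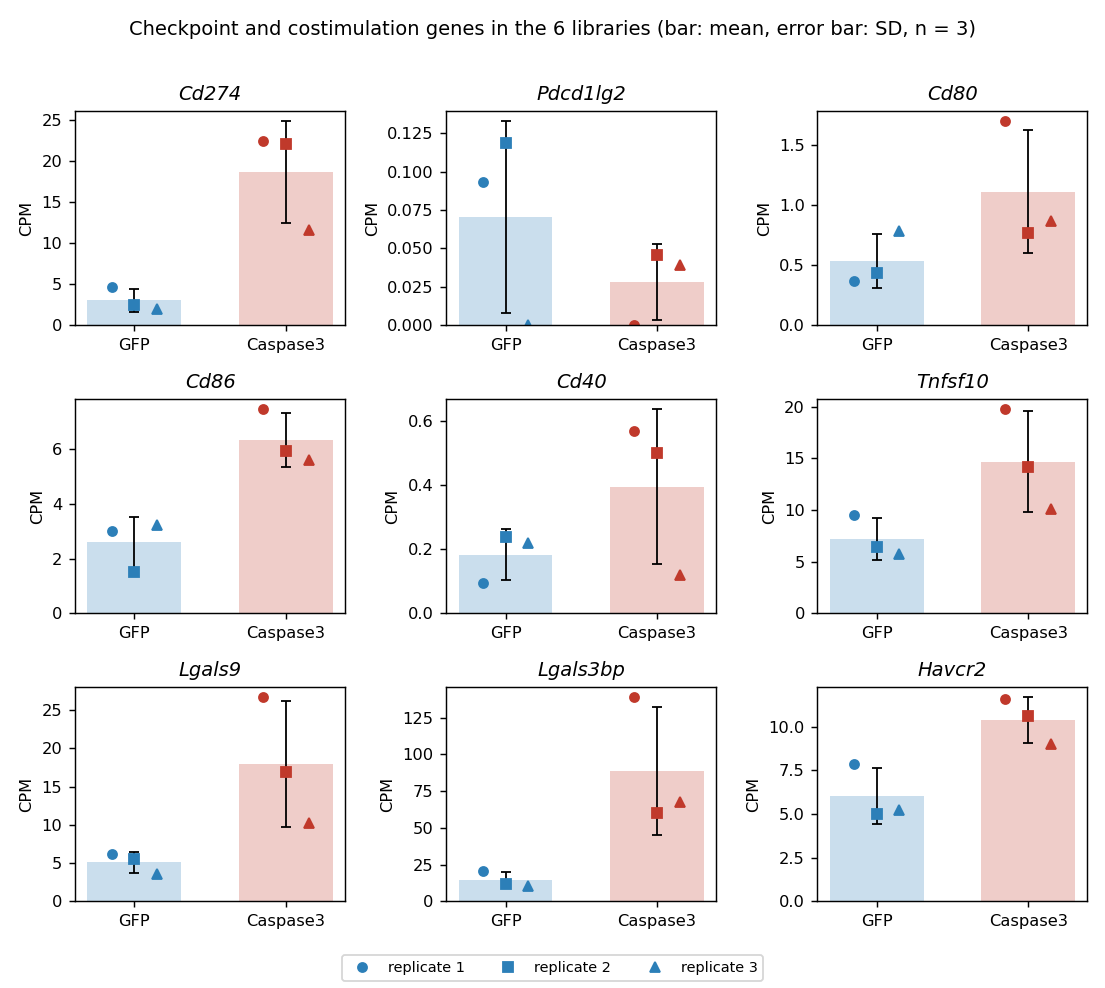
CPM of each of the 9 genes (linear axes from 0, scaled per gene) in the GFP libraries (blue) and Caspase3 libraries (red); symbols are replicates, bars are means and error bars are SD of 3 libraries. For Cd274, Cd86, Tnfsf10, Lgals9, Lgals3bp and Havcr2 all 3 Caspase3 points lie above all 3 GFP points, and for Pdcd1lg2, Cd80 and Cd40 they overlap.

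Of the CD28 ligands, Cd86 was the more abundant per length. Cd86 (chromosome 16, 36603869 to 36666081, minus strand) stood at 7.48, 5.95 and 5.59 CPM in Caspase3 replicates 1 to 3 and 3.03, 1.5 and 3.25 CPM in GFP replicates 1 to 3. The groups did not overlap, and the Caspase3 libraries lay close together, with means of 6.34 ± 1.0 and 2.59 ± 0.949 CPM (log2 fold change 1.29 ± 0.28 SE, 2.45-fold). Cd80 (chromosome 16, 38458933 to 38486933, plus strand), which binds the same receptors, stood at 1.70, 0.772 and 0.867 CPM against 0.372, 0.435 and 0.790 CPM. Here GFP replicate 3 lay above Caspase3 replicate 2, so the groups overlapped (log2 fold change 1.05 ± 0.44 SE). The level of Cd86 per kb was 1.61 to 3.78 times that of Cd80 in the 6 libraries, with overlapping ranges in the groups.

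Cd40 (chromosome 2, 165055627 to 165072948, plus strand) is the receptor through which helper T cells activate antigen-presenting cells. It had 12, 11 and 3 counts in Caspase3 replicates 1, 2 and 3 and 2, 6 and 5 counts in GFP replicates 1 to 3. Caspase3 replicate 3 fell within the GFP range, and the ratio of summed counts was 2.03 (exact 95% interval 1.01 to 4.30, counting error only). Tnfsf10 (TRAIL; chromosome 3, 27317028 to 27342427, plus strand) triggers apoptosis through death receptors. It stood at 19.8, 14.2 and 10.1 CPM in the Caspase3 libraries and at 9.49, 6.41 and 5.70 CPM in the GFP libraries. The groups did not overlap, but the lowest Caspase3 library was only 1.06 times the highest GFP library (log2 fold change 1.03 ± 0.27 SE, 2.04-fold).

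Lgals3bp and Lgals9 had the highest mean levels per kb of the set. Lgals3bp (chromosome 11, 118392751 to 118402092, minus strand), a secreted glycoprotein that binds galectin 3, stood at 139.0, 59.8 and 67.7 CPM in Caspase3 replicates 1 to 3 and 20.43, 12.1 and 10.6 CPM in GFP replicates 1 to 3. The lowest Caspase3 library was 2.93 times the highest GFP library, and Caspase3 replicate 1 stood well above the other Caspase3 libraries. Means were 88.8 ± 43.6 and 14.4 ± 5.31 CPM (log2 fold change 2.63 ± 0.36 SE, 6.19-fold). Lgals9 (chromosome 11, 78962974 to 78984946, minus strand) stood at 26.7, 16.9 and 10.3 CPM against 6.24, 5.58 and 3.60 CPM. Again no library of 1 group lay within the range of the other (log2 fold change 1.80 ± 0.34 SE, 3.48-fold). Its receptor Havcr2 (chromosome 11, 46454935 to 46481255, plus strand) had the smallest difference of the 7 genes that were tested, with 11.5, 10.6 and 8.98 CPM against 7.87, 5.02 and 5.22 CPM (log2 fold change 0.78 ± 0.20 SE, 1.72-fold). The groups did not overlap, with the lowest Caspase3 library at 1.14 times the highest GFP library.

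Library by library, the genes kept much the same order. Caspase3 replicate 1 was the highest Caspase3 library for every gene but Pdcd1lg2. Caspase3 replicate 3 was the lowest for 6 of the 9, namely Cd274, Cd86, Cd40, Tnfsf10, Lgals9 and Havcr2. GFP replicate 1 was the highest GFP library for Cd274, Lgals9, Lgals3bp, Tnfsf10 and Havcr2, and GFP replicate 3 for Cd80 and Cd86. The spread within the Caspase3 group ranged from a coefficient of variation of 12.5% for Havcr2 and 15.8% for Cd86 to 49.1% for Lgals3bp, among the 7 tested genes.

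Levels were compared between genes per kb of deposited gene length. In the GFP group the order was Lgals3bp (5.05 ± 1.86 CPM per kb, SD), Lgals9 (2.40 ± 0.643), Havcr2 (2.22 ± 0.583), Tnfsf10 (1.37 ± 0.383), Cd274 (0.839 ± 0.393), Cd86 (0.708 ± 0.259), Cd80 (0.313 ± 0.132), Cd40 (0.0538 ± 0.0231) and Pdcd1lg2 (0.0429 ± 0.038). Lgals9 and Havcr2 overlapped in that group, as did Lgals9 and Tnfsf10, Tnfsf10 and Cd274, Cd274 and Cd86, Cd86 and Cd80, and Cd40 and Pdcd1lg2. In the Caspase3 group Cd274, at 5.16 ± 1.71 CPM per kb, came after Lgals3bp (31.2 ± 15.3) and Lgals9 (8.40 ± 3.86) only. It overlapped there with both Lgals9 and Havcr2 (3.82 ± 0.478), and so its change of place is within the spread between libraries. Lgals3bp made up 38.8% of the summed level per kb of the 9 genes in the GFP group and 57.9% in the Caspase3 group.

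**Figure D2:**
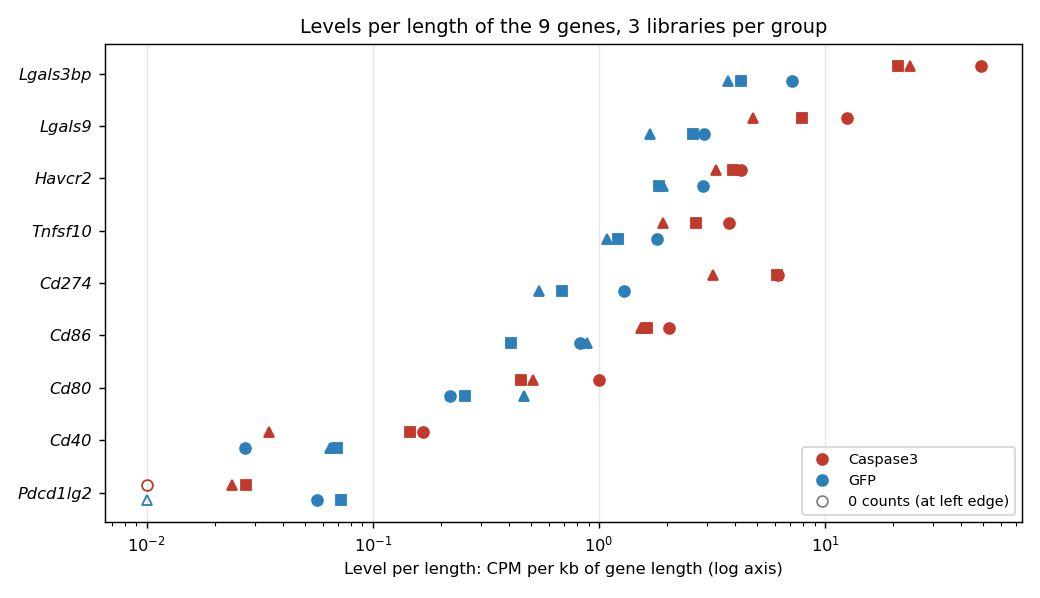
Level per length (CPM per kb of gene length, log axis) of the 9 genes in each GFP (blue) and Caspase3 (red) library, ordered by the GFP mean; circles, squares and triangles are replicates 1, 2 and 3, and open symbols at the left edge had 0 counts. Lgals3bp is the highest gene in both groups, and Cd40 and Pdcd1lg2 lie below 0.2 CPM per kb in every library.

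Of the 9 genes, 7 passed the filter on low counts. Cd80 passed only through the Caspase3 group, and Cd40 and Pdcd1lg2 did not pass. In edgeR's quasi-likelihood fit over 16721 genes, Cd274, Lgals3bp and Lgals9 were among the genes called higher (adjusted p under 0.05), a class that held 1.53% of all genes tested (1.64% in either direction). DESeq2 also placed Cd86, Tnfsf10 and Havcr2 among its higher genes, where the share of all genes was 1.87%. Since this contrast was known when the genes were chosen, nothing is read from these counts. The groups did not overlap for 6 of the 9, and 8.96% of all tested genes had every Caspase3 library above every GFP library, and 6.29% had every one below. The median log2 fold change of the 7 was 1.29 against -0.0011 for all tested genes. With GFP replicate 2 left out, none of the 9 was called, although the log2 fold changes of Cd274 and Lgals3bp were then 2.50 and 2.52. Over all genes the number called higher was 15 in that fit, against 255 with all libraries. Lgals9 was also not called without Caspase3 replicate 2, GFP replicate 1 or GFP replicate 3, and Havcr2 was called without GFP replicate 1 (log2 fold change 1.02).

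**Figure D3:**
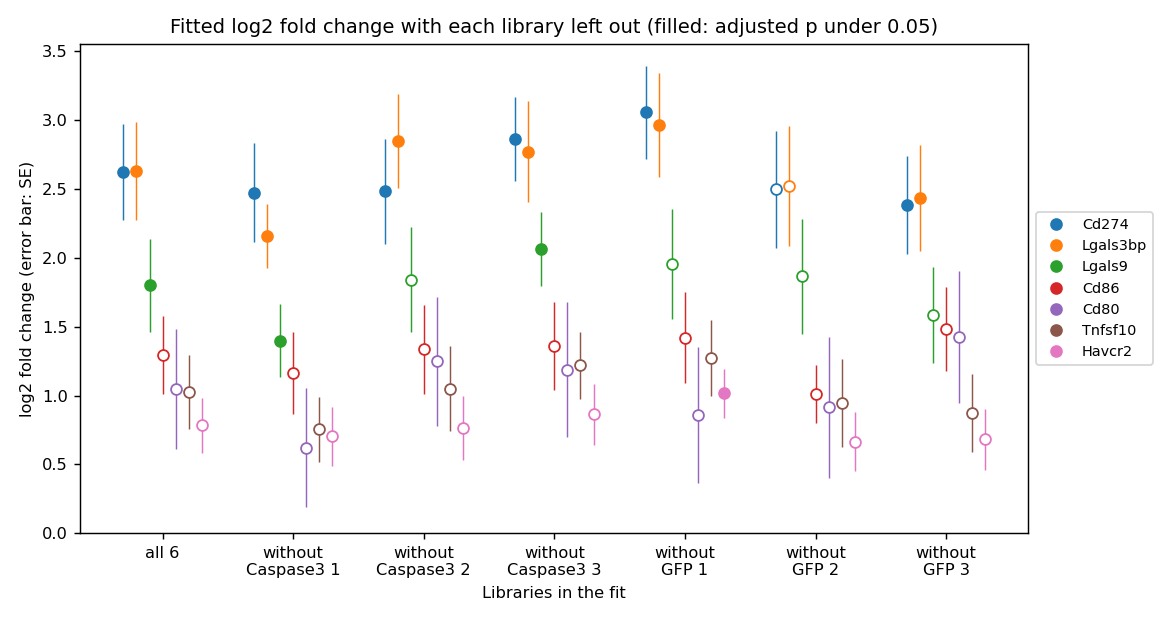
Fitted log2 fold change, Caspase3 against GFP, of the 7 tested genes with all 6 libraries and with each library left out in turn; error bars are SE and filled symbols have an adjusted p under 0.05 over all genes. The values of Cd274 range from 2.38 to 3.06 and those of Havcr2 from 0.67 to 1.02, and no symbol is filled without GFP replicate 2.

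Markers of immune cells differed between groups to unlike degrees, and the T and NK cell sums overlapped. No tested marker of monocytes and border macrophages, dendritic cells or B cells was called by edgeR. The 8 microglia markers, all detected, summed to 461.0 to 614.6 CPM in the Caspase3 libraries and 319.6 to 374.3 CPM in the GFP libraries, without overlap, and 4 of them rose, among them Aif1, Csf1r and Cx3cr1, where 1.53% of all tested genes rose. In bulk tissue, more cells of a type and more RNA per cell cannot be told apart. The 8 monocyte and border macrophage markers summed to 36.9 to 74.5 against 17.4 to 36.5 CPM. The 8 dendritic cell markers summed to 38.4 to 44.7 against 28.3 to 35.3 CPM, of which most was Siglech, which microglia also express, while Xcr1 had 3 and 1 counts over the groups and Ccr7 2 and 2. The 10 T and NK cell markers summed to 3.78 to 8.04 against 0.712 to 4.43 CPM, and Cd4 alone was 4.12 CPM in GFP replicate 3. Of these, 4 were tested. Cd3e, Cd8a and Cd8b1 were among them and were called higher, but they passed the filter on low counts only through the Caspase3 group, with 2 to 9 counts in each GFP library, so nothing is read from those calls. Cd3d, Ncr1 and Klrb1c had no count in any GFP library, but their Caspase3 counts are not reported here, so nothing is read from that absence. The 5 B cell markers summed to 0.590 to 1.51 against 0.186 to 0.439 CPM. Astrocyte and endothelial cell sums overlapped between groups.

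Relative to the summed microglia markers, whose group means had a ratio of 1.54, 4 of the 9 genes were separated between groups. This scale was chosen after the values were seen. The share of all tested genes separated on it was not computed, so nothing is read from that number. Per 1000 CPM of microglia markers, Cd274 stood at 36.5, 44.8 and 25.04 CPM in Caspase3 replicates 1 to 3 and 12.4, 7.80 and 6.10 CPM in GFP replicates 1 to 3, and its group means had a ratio of 4.04. The corresponding ratios were 3.95 for Lgals3bp, 2.21 for Lgals9 and 1.59 for Cd86, all without overlap between groups. Cd86 stood at 12.17, 12.04 and 12.13 CPM per 1000 in the Caspase3 libraries and 8.08, 4.70 and 10.03 CPM per 1000 in the GFP libraries. Havcr2, with 18.8, 21.5 and 19.5 against 21.0, 15.7 and 16.1 CPM per 1000, overlapped between groups (ratio of means 1.13), as did Tnfsf10 (1.31), Cd80 (1.30), Cd40 (1.31) and Pdcd1lg2. The part of microglia or of infiltrating cells in the differences was not tested.

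**Figure D4:**
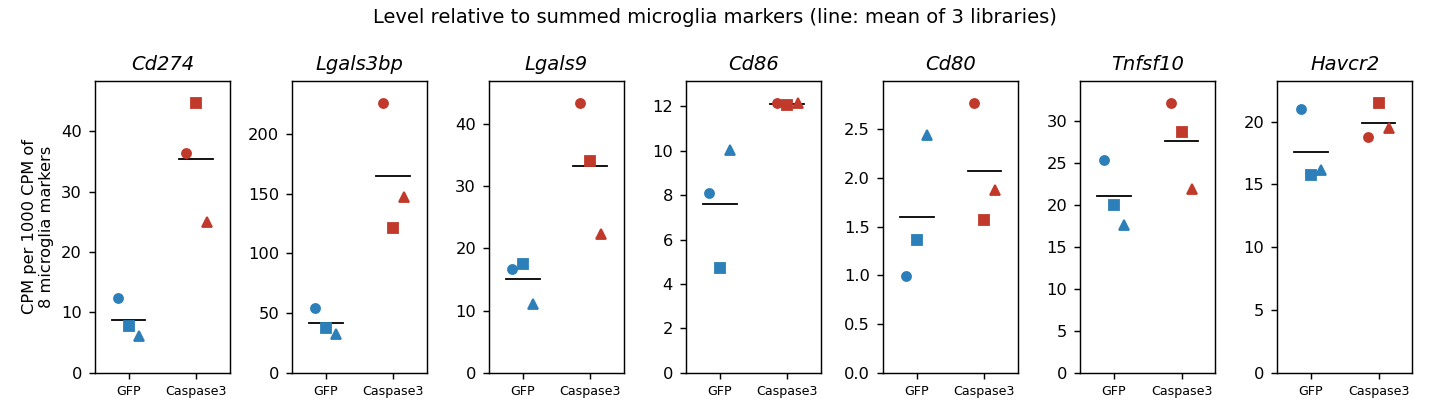
CPM per 1000 CPM of 8 summed microglia markers for the 7 tested genes in GFP (blue) and Caspase3 (red) libraries; circles, squares and triangles are replicates 1, 2 and 3, lines are means, and each axis starts at 0. Cd274, Lgals3bp, Lgals9 and Cd86 are separated between groups on this scale, while Cd80, Tnfsf10 and Havcr2 overlap.

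The wider pathway was read from 7 lists of 113 genes outside the 9, also chosen with earlier results known, of which 111 were in the table and 81 were tested. In that union 8 rose, Tnfsf8 included, none fell and 73 did not pass (edgeR, adjusted p under 0.05), where 1.53% of all tested genes rose and 0.114% fell. Tnfsf8 passed the filter on low counts only through the Caspase3 group, so nothing is read from its call. The median log2 fold change of the 81 was 0.34, and 25 of them had an unadjusted p under 0.05. The share of all tested genes under that level was not computed, so nothing is read from such counts here or below. Among binding partners of the 9 genes, none of the 8 tested passed with edgeR or DESeq2, and 2 had an unadjusted p under 0.05 with edgeR. Cd28 was called by edgeR with scaling to library totals only and without the filter, and Pdcd1 without the filter. Cd28, through which T cells bind Cd80 and Cd86, had 65 counts in the Caspase3 group and 16 in the GFP group (log2 fold change 2.03 ± 0.42 SE, adjusted p = 0.0548). Cd28 passed the filter on low counts only through the Caspase3 group, so nothing is read from its p-value or calls. Pdcd1, which encodes PD-1, was below the filter with 30 counts against 5 (ratio 6.09, exact 95% interval 2.34 to 20.1, counting error only). Its counts were 17, 5 and 8 in Caspase3 replicates 1 to 3 and 2, 2 and 1 in GFP replicates 1 to 3. Every Caspase3 library lay above every GFP library, but at few counts, and Caspase3 replicate 1 held most of the Caspase3 counts. Ctla4, with 8 and 4 counts, and Cd40lg, with 2 and 2, were too sparse to compare. Lgals3, the galectin that Lgals3bp binds, had 42 and 12 counts (log2 fold change 1.81 ± 0.47 SE, adjusted p = 0.132). Lgals3 too passed the filter only through the Caspase3 group, so nothing is read from its p-value. The TRAIL receptor Tnfrsf10b differed by 0.41 ± 0.27 on the log2 scale (adjusted p = 0.653), and Rgmb, a partner of Pdcd1lg2 and the most abundant of this list, by -0.19 ± 0.10 (adjusted p = 0.578).

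Among other B7, CD28 and checkpoint genes, 2 of 14 tested rose with edgeR, and DESeq2 also called Cd48. Lag3, a checkpoint receptor that binds MHC class II, was at 31.8, 15.3 and 23.4 CPM in the Caspase3 libraries and 8.94, 4.67 and 5.57 CPM in the GFP libraries (log2 fold change 1.88 ± 0.30 SE, adjusted p = 0.0174). Icosl, the ligand of the T cell costimulator ICOS, stood at 9.61, 6.31 and 7.01 against 3.44, 3.28 and 3.16 CPM (log2 fold change 1.21 ± 0.20 SE, adjusted p = 0.0175). Both were higher in each Caspase3 library than in any GFP library. Lag3 missed the threshold without GFP replicate 2 or 3 (adjusted p up to 0.104), and Icosl without any 1 GFP library (up to 0.102). Among 13 tested TNF superfamily genes, edgeR called Tnfsf8, the ligand of CD30, and DESeq2 also called the TNF receptors Tnfrsf1a and Tnfrsf1b. Tnfsf8 had 93 counts against 8, with none in GFP replicate 2 (log2 fold change 3.51 ± 0.69 SE, adjusted p = 0.0414). It passed the filter on low counts only through the Caspase3 group, so nothing is read from its p-value or calls. In each of the 6 fits that omitted a library its adjusted p lay between 0.0614 and 0.121, and its log2 fold change was 4.34 without GFP replicate 1 and 2.89 without GFP replicate 2.

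No other galectin passed among 5 tested with edgeR, or with DESeq2, and 3 had an unadjusted p under 0.05 with edgeR. The most abundant, Lgalsl, differed by -0.30 ± 0.10 on the log2 scale (adjusted p = 0.288). Of 18 genes of CD40 signalling, Birc3, an inhibitor of apoptosis that is recruited to TNF receptors, rose from 1.95, 1.74 and 2.28 to 3.93, 4.54 and 4.02 CPM (log2 fold change 1.06 ± 0.20 SE, adjusted p = 0.0356), but with adjusted p between 0.0524 and 0.155 in the fits that omitted a library. None of 11 genes of TRAIL death signalling passed (1 had an unadjusted p under 0.05, and DESeq2 called Casp8). Xiap, a caspase inhibitor and the most abundant of them, differed by -0.21 ± 0.11 on the log2 scale (adjusted p = 0.546).

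Of 12 genes that carry interferon signals, 4 rose, among them the transcription factors Irf9 (log2 fold change 2.28 ± 0.28 SE, adjusted p = 0.00569), Stat2 (1.39 ± 0.18, adjusted p = 0.00621) and Irf1 (1.37 ± 0.23, adjusted p = 0.019), each by edgeR over all genes. Exons of Irf9 overlap exons of Rnf31 on the same strand in GENCODE M21, so its counts could hold reads of the neighbour, which had 2136 counts in all. Exons of Irf1 overlap the antisense gene model Gm17334, with 23 counts in all. The interferon receptor and kinase genes and Stat3 did not pass. Stat2 stood at 69.6, 45.2 and 43.3 CPM in Caspase3 replicates 1 to 3 and 20.5, 19.0 and 20.6 CPM in the GFP libraries, the same order of Caspase3 libraries as for Cd274 and Lgals9. Without GFP replicate 2 none of the 85 pathway genes then tested passed, with adjusted p of 0.0585 for Stat2, and without GFP replicate 3 only 3 did, Stat2 and Irf9 among them. All 4 interferon genes passed without any 1 of the Caspase3 libraries or without GFP replicate 1.

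**Figure D5:**
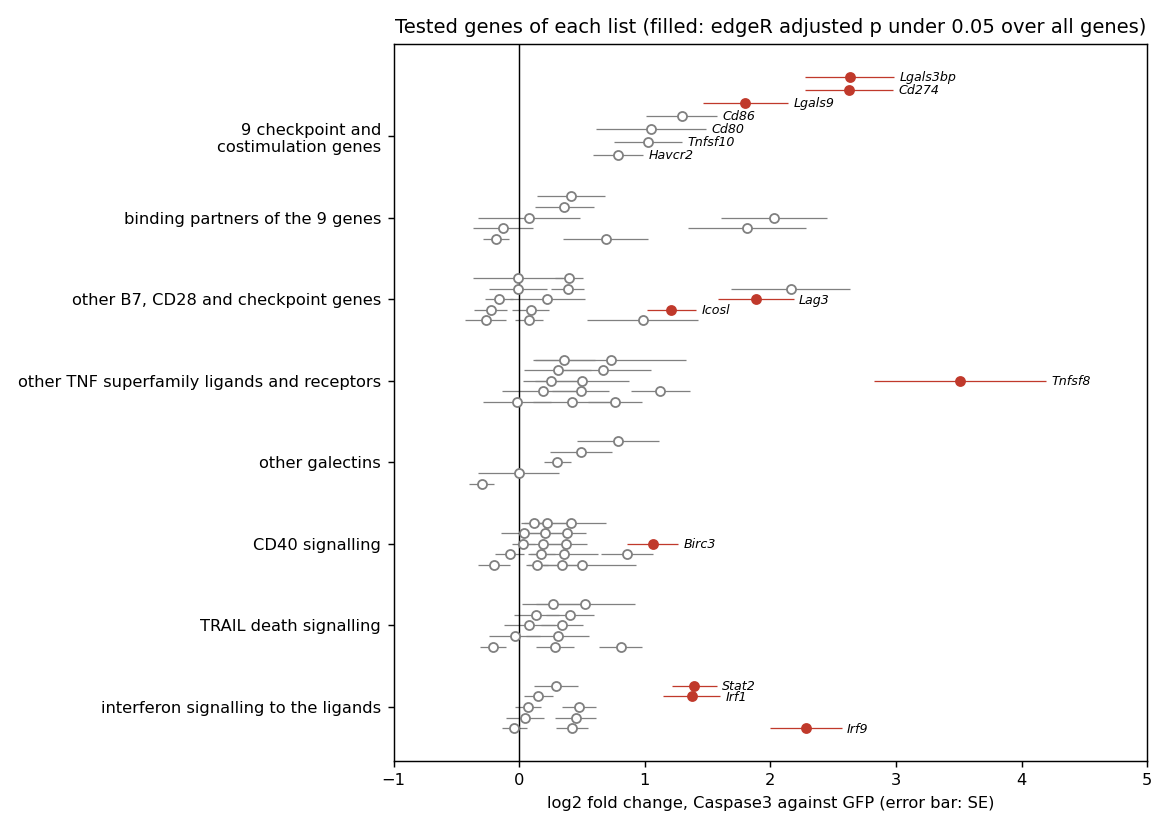
Fitted log2 fold change, Caspase3 against GFP, of the tested genes of each list that are reported here; error bars are SE and filled symbols have an adjusted p under 0.05 over all genes. Most genes of the pathway lists lie between -0.5 and 1. The filled symbols are Icosl, Lag3, Tnfsf8, Birc3, Stat2, Irf1 and Irf9 beside Cd274, Lgals3bp and Lgals9. Tnfsf8 passed the filter on low counts only through the Caspase3 group, so nothing is read from its filled symbol.

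Genes with the most similar pattern over the 6 libraries were sought for Cd274, Cd86 and Lgals9 among 13138 genes, by the root mean square difference of log2 CPM after each gene's mean was subtracted. Nearest to Cd274 were Igtp (0.165), an interferon-inducible GTPase, Parp14 (0.178), an ADP-ribosyltransferase, and Mndal (0.187). Nearest to Cd86 were Adcy7 (0.162), an adenylyl cyclase, Ms4a6b (0.172), a membrane protein, and Fyb (0.176), an adaptor of immune cells. Nearest to Lgals9 were Eif2ak2 (0.157), the kinase PKR, Fcgr1 (0.162), an Fc receptor, and H2-M3 (0.177), a non-classical MHC class I gene. This likeness includes the group difference and is a description over 6 libraries.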

How the data were processed

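Poly(A) RNA was sequenced in 6 libraries, grouped by sample title. The deposited table held whole-number read counts per gene and a second deposited table FPKM values, per the file headers; FPKM served only in alternatives. The submitters' processing notes name HISAT2, featureCounts, DESeq2, GRCm38 and mm10; versions and the strand setting are not given in the sources used here, so antisense overlaps could add reads. The genes, lists and tests were chosen with earlier results of these data known.

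Counts passing filterByExpr were scaled by TMM and fitted by edgeR 4.0.16 (glmQLFit, glmQLFTest, no covariate; R 4.3.3), with Benjamini-Hochberg adjustment over 16721 genes. The SE is the absolute log2 fold change divided by the square root of F. CPM were computed here from the deposited counts with TMM-scaled totals. Intervals of count ratios are exact binomial. The fit was also run on counts simulated from the mean levels and fitted variation of these libraries. Such counts hold no outlying library, so nothing is read from that run about the dependence on single libraries. Replicates differed beyond sampling noise in every pair (mean chi-square per gene 12.6 to 32.8). Alternatives used DESeq2 1.42.0, limma 3.58.1, other scalings, filters and thresholds, a replicate block, and each library left out; the fit that omits both Caspase3 replicate 1 and GFP replicate 3, and the scaling to microglia markers, were chosen after seeing the data.

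Named were Gad2, the 9 genes, per pathway list up to 4 called genes with the smallest adjusted p or else the most abundant tested gene, and the 3 most similar genes of Cd274, Cd86 and Lgals9 with a mean of at least 1 CPM. Pdcd1, Cd28, Ctla4, Cd40lg, Lgals3, Tnfrsf10b, Tnfrsf1a, Tnfrsf1b, Cd48 and Casp8 were named after their values were seen. Some genes that the rule names or the lists hold are not reported here. The names Cd244a and Lgals6 matched no row of the table. Exons of Cd274 overlap an antisense gene with 0 counts. RefSeq held promoter windows for all but Cd86 and Cd40. Figures were drawn with Matplotlib 3.10.9.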

Additional observations from a re-analysis of the deposited data

How the results depend on the processing

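Over 17 alternatives none of the 18 single genes followed here reversed: of 304 values, 256 kept their side of the threshold, 38 lost it and 10 gained it. The 9 checkpoint and costimulation genes held 3 calls, against 6 by DESeq2, in the unfiltered fit and with the replicate block (Cd274, Lgals3bp, Lgals9, Tnfsf10, Havcr2 and Cd86 each time), and 0 to 3 with 1 library left out. With limma-voom and with limma on log2(FPKM + 0.1) or log2(FPKM + 1) they held 2, Cd274 and Lgals3bp. Lgals9 was not called in those limma fits (adjusted p = 0.0849, 0.0662 and 0.0882, in that order). The median log2 fold change of the tested genes of this set, 1.29, was 0.68 on the log2(FPKM + 1) scale, which compresses low genes. It was 1.14 to 1.45 with 1 library left out. Pathway calls numbered 8, Tnfsf8 included, against 19 in the unfiltered fit and 0 to 6 with 1 library left out. None was lower in any fit. Over all genes, 255 were higher and 19 lower, against 663 and 250 in the unfiltered fit, 397 and 98 with DESeq2, and 160 and 10 on the log2(FPKM + 1) scale. Lower calls numbered 43 with the replicate block, 40 at an adjusted p under 0.1 and 77 without both Caspase3 1 and GFP 3. With 1 library left out, 15 to 252 were higher and 2 to 33 lower. The cause of these shifts was not tested. Same-numbered libraries correlated by 0.0648, 0.178 and 0.0273 in their deviations from the group means. Caspase3 replicates 2 and 3 correlated best with the GFP library of their own number, and Caspase3 replicate 1 with GFP replicate 3 (0.0794). These values cannot tell whether a shared number marks a shared batch, which the labels do not say. With the replicate block 378 genes were higher. The block also called Cd28, Tnfrsf1a and Tnfrsf1b. Depth limits Cd40 and Pdcd1lg2, which the main filter left out.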
